A study of Arabidopsis thaliana with 8 samples.

Results

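The 200 probe sets with the highest mean intensity on the control arrays of an Arabidopsis thaliana inflorescence series are described here, by function and by how steady they were in 3 insertion genotypes. They were taken by rank from the deposited intensity table, which holds 22810 probe sets. Control probe sets (64) and a block of 150 consecutively numbered probe sets, as the rule asked, were left out first, so the 200 came from 22596 candidates. The members were chosen by their mean over both CON arrays and by no other value. Every difference from CON below is therefore a description, and tests are given only for differences among the other groups.

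RNA came from inflorescences of accession Ws at growth stage 6.0. Plants were greenhouse grown in compost at 18 °C with 16 h of light, and the series' design text gives a pool of 10 plants. T13 carries a T-DNA insertion in AT3G47620, the gene for the transcription factor TCP14. T14 carries one in AT1G69690, the gene for TCP15. HET plants carry an insertion at both genes, each in the heterozygous state, and CON is the control. Each group has 2 ATH1 arrays, HET replicate 2 bears the word repeat in its title, and 1 line stands for each gene. Whether T13 and T14 are homozygous is not stated. Nor is it said that both arrays of a group stem from different pools of plants, so p-values here reflect array-to-array spread that could be purely technical.

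Growing plant tissue spends much of its transcript pool on making ribosomes. A cytosolic ribosome has a large subunit that forms peptide bonds, a small subunit that reads the mRNA, and a stalk of acidic P proteins that recruits elongation factors. In Arabidopsis each ribosomal protein is encoded by a small family of near-identical genes. TCP proteins are plant transcription factors that act in the growth of shoots and flowers, and some of them bind elements found upstream of ribosomal protein genes in plants. An inflorescence also holds green sepals, stems and anthers with pollen, so transcripts of photosynthesis and of the male tissues are known among its abundant ones.

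The 200 probe sets held between 15.8% and 17.5% of the summed intensity of each array. TCP15, the gene interrupted in T14, read 205.9 and 204.1 in T13, 86.0 and 68.8 in T14, 188.2 and 221.8 in HET, and 198.2 and 244.0 in CON. It was lowest on both T14 arrays. TCP14 was not analysed here for want of a probe set under its name. On HET replicate 1 the 5' GAPDH control read 0.345 times the 3' one, an index of RNA integrity, against 0.0639 to 0.129 times on the remaining 7 arrays. None of the 14 floral, 2 meristem and 4 seed markers that were looked up had a named probe set, so the floral label could not be checked against floral organ genes. Of 5 markers of the tapetum, the anther layer that feeds pollen, 3 had a named probe set, and on the CON arrays A9 read 156.4 and 192.7, ATA27 207.2 and 209.9, and AMS 23.6 and 23.8. Of the 4 root hair markers, 2 had one, with EXPA7 between 11.9 and 36.3 and EXPA18 between 2.0 and 23.2 on the 8 arrays. No detection calls were used, so these values do not say which of the genes were expressed.

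Ribosomal proteins dominated what could be named. Of the 200 probe sets, 72 read 1 annotated gene, 24 read several and 104 were unnamed in the annotation used here. Of the 96 named ones, 70 read cytosolic ribosomal protein genes, which is 72.9%. The next groups were photosynthesis with 5, translation factors with 3, and storage, stress and defence with 3. The unnamed share was 52.0%, against 38.4% of all candidates, and 16 of the 20 highest probe sets were unnamed. The function counts thus hold for the named members and are no share of the whole 200. Rank here is of signal, which also depends on how well each probe set binds, so a higher rank does not show more transcript.

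**Figure D1:**
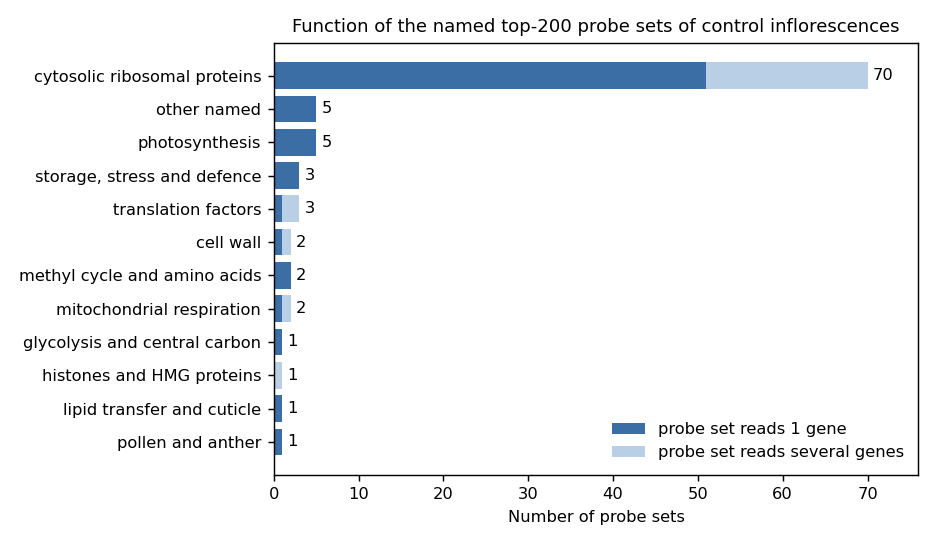
Number of named probe sets per function group among the 200 highest of control inflorescences, split by whether the probe set reads 1 gene or several. Cytosolic ribosomal proteins account for 70 of the 96 named probe sets, and no other group exceeds 5.

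The ribosomal probe sets covered both subunits and the stalk. Large-subunit proteins had 37 probe sets from 26 families, small-subunit proteins 28 from 22 families, and the stalk 5 from 3 families (P0, P1 and P2). In 51 probe sets 1 gene was read and in 19 several near-identical paralogs were read together. AT3G60245, the large-subunit protein L37a, had the highest CON mean of the probe sets that read 1 gene. It read 4688.7 and 4213.3 in T13, 4594.1 and 4471.8 in T14, 3430.0 and 4240.9 in HET, and 4679.2 and 3620.8 in CON. The CON arrays lay far apart, and their range overlapped that of each of the other groups.

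AT1G52300, the large-subunit protein L37, was the steadiest of all 200. It read 3953.6 and 3465.0 in T13, 3834.3 and 3747.6 in T14, 3544.1 and 3583.8 in HET, and 3980.1 and 3456.2 in CON. Its highest array was 1.15 times its lowest, and both extremes were CON arrays. AT3G09200, the stalk protein P0 that anchors P1 and P2, read 3424.5 and 4436.6 in T13, 3531.4 and 4101.7 in T14, 3590.9 and 3983.9 in HET, and 3701.8 and 3284.0 in CON. The arrays of its groups overlapped. AT5G20290, the small-subunit protein S8, read 3696.1 and 3622.2 in T13, 3705.3 and 3653.8 in T14, 3672.0 and 3704.2 in HET, and 3590.4 and 2995.0 in CON. Both CON arrays were its lowest, a direction opposite to the choice by high CON values.

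Translation factors had a smaller median range from lowest to highest array, 0.29 on the log2 scale, than ribosomal proteins (0.54) or photosynthesis (0.66). That value rests on 3 probe sets, and the range was not summarised for each of the remaining function groups. The probe set that reads 4 genes of EF1A, the factor that carries aminoacyl-tRNA to the ribosome, read 4699.2 and 4264.2 in T13, 4888.3 and 4693.7 in T14, 4582.7 and 4723.1 in HET, and 4594.6 and 3992.9 in CON. It was the highest named probe set of CON. AT5G19510, a subunit of the exchange factor that reloads EF1A, read 1878.7 and 1925.1 in T13, 1879.8 and 2118.7 in T14, 2362.0 and 2297.9 in HET, and 2098.4 and 1982.5 in CON. Both HET arrays were its highest, with a HET minus T13 difference of 0.29 ± 0.19 (SE) and a HET minus T14 difference of 0.22 ± 0.19 on the log2 scale, neither called.

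The 5 photosynthesis members were LHCB4.1, an antenna protein of photosystem II, RCA, the activase of Rubisco, PSBW and PSAE-1, small subunits of the photosystems, and AT4G01150, a thylakoid membrane protein. RCA read 2420.9 and 1922.1 in T13, 3396.0 and 2416.4 in T14, 3139.5 and 3162.2 in HET, and 2314.2 and 2405.2 in CON. LHCB4.1 read 2106.9 and 2259.2 in T13, 3213.8 and 2335.3 in T14, 2488.4 and 2916.7 in HET, and 2509.7 and 2249.8 in CON. In both genes T14 replicate 1 was the highest array and T14 replicate 2 lay far below it. RCA also had both HET arrays above both CON and both T13 arrays, with a HET minus T13 difference of 0.54 ± 0.22 (SE, log2, limma, adjusted p = 0.481).

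Other named members came from several pathways. SAMDC, which makes the propylamine donor for polyamines, read 2215.4 and 3393.4 in T13, 2512.0 and 2790.1 in T14, 2215.1 and 3311.8 in HET, and 2010.6 and 2656.2 in CON. GAPC2, a cytosolic glyceraldehyde phosphate dehydrogenase of glycolysis, read 1840.8 and 1828.9 in T13, 1847.4 and 1937.4 in T14, 2400.3 and 1939.0 in HET, and 1840.4 and 1892.5 in CON. CYTC-1, the cytochrome c of mitochondrial electron transport, read 1623.4 and 1481.6 in T13, 1345.8 and 1453.8 in T14, 1559.0 and 1422.0 in HET, and 1725.3 and 1578.9 in CON. None of these 3 was called in any comparison, and their lowest and highest arrays differed by less than 2-fold.

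AT1G78040, of the pollen allergen Ole e 1 family, had the highest CON mean of the 1-gene members outside translation. It read 4031.8 and 3107.8 in T13, 4348.4 and 2798.8 in T14, 3065.7 and 3487.9 in HET, and 3602.2 and 2796.9 in CON. In T13, T14 and CON replicate 1 was higher, and in HET replicate 2 was. AT3G58610, a ketol-acid reductoisomerase of branched-chain amino acid synthesis, AT2G10940, of the lipid transfer protein superfamily, and the aspartic protease APA1 were also among the 200. A probe set that reads several histone H4 genes was the only histone member.

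Among the unnamed, 264474_s_at had the highest CON mean of all. It read 7401.6 and 6626.7 in T13, 8997.6 and 6245.4 in T14, 5291.2 and 6650.9 in HET, and 6743.4 and 4790.8 in CON. T14 replicate 1 was the highest array and CON replicate 2 the lowest. At the other end, the last members by CON mean were APA1 (1598.45), 255435_at (1594) and the probe set for small-subunit protein S2 genes AT1G59359, AT1G58983, AT1G58684 and XW6 (1591.05). Just outside were 248362_at (1587.25), 248128_at (1578.65) and AT1G48750 (1575.45), of the lipid transfer family.

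Most of the 200 stayed close between groups. Log2 differences were taken on intensity plus 16. Against CON, 188 in T13, 186 in T14 and 190 in HET differed by less than 0.5 on the log2 scale, with medians of -0.02, -0.02 and -0.01. Of all 15045 probe sets tested, 91.3%, 91.4% and 91.5% did so in the same order of groups. In the comparisons that the choice did not use, 195 members lay within 0.5 in T13 against T14 (93.3% of all tested), 183 in HET against T13 (87.0%) and 184 in HET against T14 (87.6%). The members' medians there were -0.02, -0.01 and 0.03. All 200 passed the filter on low values.

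**Figure D2:**
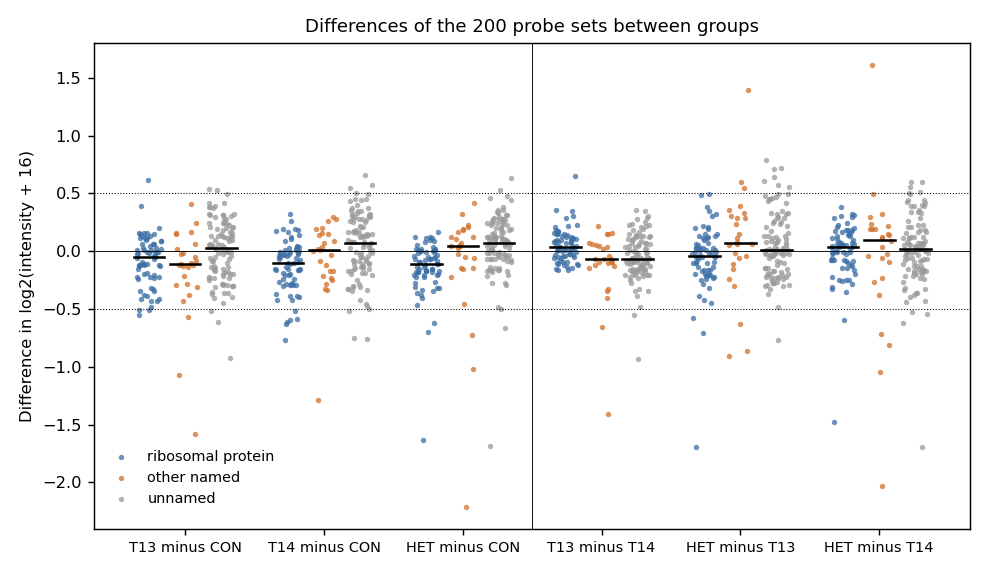
Difference in log2(intensity + 16) of each of the 200 probe sets in 6 comparisons, with the 3 against CON, which share the values that chose the members, left of the vertical line. Each point is 1 probe set, black bars are medians and dotted lines mark 0.5 either side of 0. Most points lie between the dotted lines, and the few below -1 in HET include 1 ribosomal and 1 unnamed probe set in HET minus T14.

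Ribosomal members lay mostly within the same bound. Their medians against CON were -0.05 in T13, -0.10 in T14 and -0.11 in HET, with 44, 52 and 53 of the 70 below CON in that order. Of all 15045 tested, 6423, 6940 and 7452 were below CON. The 104 unnamed members had medians of 0.03, 0.07 and 0.07, and the choice by CON values bears on them and on the ribosomal ones. Of the 70 probe sets, 69 lay within 0.5 in T13 against T14, 67 in HET against T13 and 68 in HET against T14, with medians of 0.04, -0.04 and 0.03. Replicate arrays differed by as much as groups. The median deviation of the 70 from their 8-array mean was -0.11 and 0.13 in T13, -0.13 and 0.06 in T14, 0.05 and -0.08 in HET, and 0.12 and 0.00 in CON. Replicate 2 was above replicate 1 in 62 of the 70 in T13 and in 56 in T14, while it was above in 22 in HET and in 21 in CON. Among the 26 other named members replicate 2 was above in 10 in T13 and 11 in T14, and among the 104 unnamed in 45 and 39. In HET it was above in 13 of the 26 and 61 of the 104, and in CON in 6 and 29. Of all 15045 tested it was above in 7715 in T13, 7845 in T14, 8640 in HET and 7257 in CON. The 5 photosynthesis members had median deviations of -0.19 and -0.14 in T13 and of 0.37 and -0.09 in T14.

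**Figure D3:**
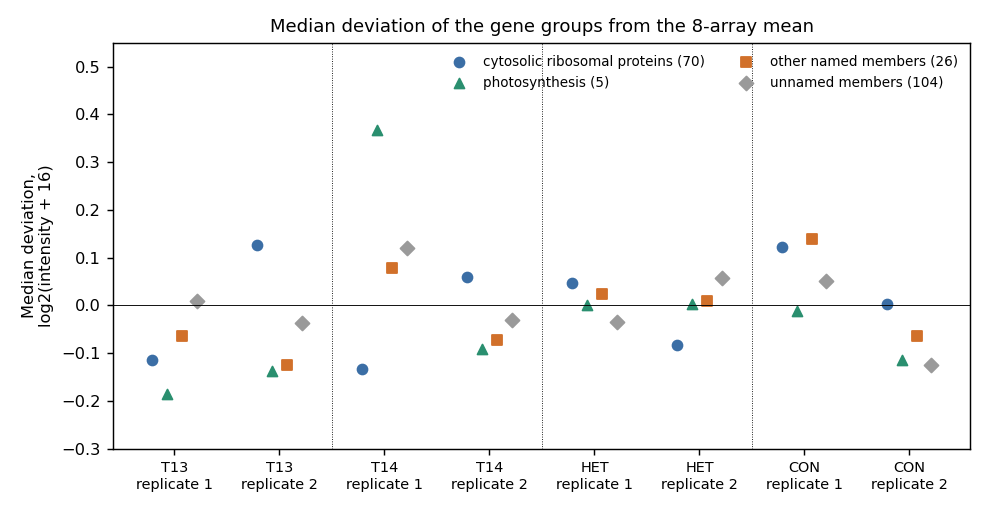
Median deviation from the 8-array mean, in log2(intensity + 16), on each array for ribosomal, photosynthesis, other named and unnamed members, with the number of probe sets in brackets. The 5 photosynthesis probe sets are also counted among the 26 other named ones. Replicates of T13 and T14 lie on opposite sides of 0 for ribosomal members, and the highest point is photosynthesis in T14 replicate 1, at 0.37.

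Across all 8 arrays, 179 of the 200 had less than a 2-fold span from lowest to highest array. On the log2(intensity + 16) scale that is 89.5% under a span of 1, against 79.5% of all probe sets tested. The median span was 0.60 for members, 0.54 for the ribosomal ones, 0.29 for the 3 translation factors and 0.70 for all tested. The 21 members that spanned 2-fold or more held 10 named ones, of which 4 were ribosomal. In 8 of these 21, the arrays of at least 1 group were themselves 2-fold apart or more.

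Ranking again in each genotype gave much the same list. Of the 200, 178 were among the 200 highest means of T13, 171 of T14 and 169 of HET, and 151 were in all 3 lists. Single arrays of a group shared 152 to 173 of their own 200 highest over 4 pairs, and arrays of CON and another group shared 150 to 172 over 12 pairs. Arrays of T13, T14 and HET from different groups shared 148 to 183 over 12 pairs. T13 replicate 2 and T14 replicate 2 shared the most, 183, while the 2 arrays of T14 shared 152. The 22 entrants of T13 and the 29 of T14 were within the first 400 of CON, as were 30 of the 31 of HET. The exception in HET ranked 433 in CON and reads AT3G15395 together with ATA20, an anther gene. Singled out after its values were seen, it read 1317.9 and 1187.3 in T13, 457.0 and 402.0 in T14, 1834.3 and 1690.2 in HET, and 797.1 and 1015.7 in CON.

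Few members passed the test among T13, T14 and HET. In T13 against T14, limma called 1 of the 200, lower in T13, where 0.499% of all 15045 tested were called and 0.379% were called lower. In HET against T14 it called 3, against a background of 0.97%, and all 3 were lower in HET, against 0.731% of all called lower. Of all tested, 110 were called lower there and 36 higher. A probe set low in both CON and T14 and raised in HET could hardly be a member. Nothing is therefore read from the direction of these calls. In HET against T13 it called 0 of 200 and 0% of all. The unadjusted p was under 0.05 in 16 of the 200, against 9.91% of all tested. The smallest adjusted p of a member was 0.168. A moderated F test of any difference among the 3 genotypes called 3 members, against 0.778% of all. The arrays of the groups were fully separate in 20.0% of members in T13 against T14, 38% in HET against T13 and 31.5% in HET against T14, against 29.7%, 43.2% and 39.2% of all tested. Against CON the fit placed 1 member of T13 (background 0.592%, lower alone 0.585%), 0 of T14 (0.0199%) and 3 of HET (1.07%, lower alone 1.02%) past the same threshold, all lower, from which nothing is read since CON values chose the members.

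The largest difference belonged to a pollen transcript. The probe set that reads both VGD1 and VGDH1 represents pectin methylesterases of the pollen tube wall, VGD1 being needed for tube growth. It read 594.3 and 616.7 in T13, 1353.9 and 1966.8 in T14, 337.2 and 441.7 in HET, and 2030.3 and 1677.1 in CON. T13 and HET arrays all lay below every T14 and CON array. The log2 difference was -1.41 ± 0.24 (SE) in T13 minus T14 (limma, adjusted p = 0.0293) and -2.04 ± 0.24 in HET minus T14 (adjusted p = 0.00114). In HET minus T13 it was -0.63 ± 0.24 (adjusted p = 0.473). By rank of group mean it stood at 649 in T13, 158 in T14 and 1328 in HET, the lowest place of any member in any genotype.

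The T13 minus T14 call for it was lost without 6 of the 8 arrays in turn. Without T13 replicate 1 the difference was -1.38 (adjusted p = 0.179), without T13 replicate 2 -1.43 (0.201) and without T14 replicate 2 -1.14 (0.18). Without CON replicate 1, CON replicate 2 or HET replicate 1 it stayed at -1.41, with an adjusted p of 0.0584, 0.0576 and 0.0501 in that order. It was kept without T14 replicate 1 (-1.67, adjusted p = 0.0287) and without HET replicate 2 (-1.41, 0.0497). The HET minus T14 call held without any 1 array, and with the GAPDH ratio as a covariate it was -1.57 (adjusted p = 0.228).

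Pollen markers outside the 200 are given beside it, with no test. Of 4 pollen markers, 3 had a named probe set, of which 1 is the VGD1 and VGDH1 probe set itself. ANX2, a receptor kinase of the pollen tube, read 8.6 and 16.8 in T13, 38.9 and 67.0 in T14, 4.3 and 9.6 in HET, and 61.6 and 65.1 in CON. ANX1, its close relative, read 2.8 and 2.9 in T13, 17.2 and 10.1 in T14, 10.1 and 1.7 in HET, and 13.5 and 13.6 in CON, so HET replicate 1 met T14 replicate 2. The sum of both was 11.4 and 19.7 in T13, 56.1 and 77.1 in T14, 14.4 and 11.3 in HET, and 75.1 and 78.7 in CON. In ANX2 and in the sum, both HET arrays and both T13 arrays were below T14 and CON. These are dim values, since the median intensity of an array was 51.3 to 59.5 and ANX1 was below it throughout. The root hair marker EXPA7 read 11.9 to 36.3 on the same arrays, so the low values may be background. The summed tapetum markers A9, ATA27 and AMS read 519.9 and 530.1 in T13, and 116.1 and 220.9 in T14. They read 1109.9 and 720.8 in HET, and 387.2 and 426.4 in CON, an order that differed from that of pollen. A9 and ATA27 each had both HET arrays highest and both T14 arrays lowest, as in the sum. AMS, the dimmest of them, did not follow it. It read 45.3 and 47.4 in T13, above both HET arrays, and T14 (22.7 and 29.9) overlapped CON (23.6 and 23.8). The part of these tissues in the result was not tested, and in bulk RNA fewer cells of a type and less RNA per cell cannot be told apart.

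The unnamed 251590_at also had all T13 and HET arrays below every T14 and CON array. It read 950.4 and 1307.3 in T13, 1608.7 and 2842.4 in T14, 589.6 and 714.3 in HET, and 2312.6 and 1958.9 in CON. HET was lowest and T13 next, and the T14 arrays were far apart. In HET minus T14 the log2 difference was -1.70 ± 0.28 (SE, limma, adjusted p = 0.0122), while T13 minus T14 was -0.93 ± 0.28 (adjusted p = 0.499). The HET minus T14 call was lost without T14 replicate 2 (-1.29, adjusted p = 0.0952), HET replicate 1 (-1.56, 0.192) or HET replicate 2 (-1.83, 0.0516), and with the GAPDH covariate it was -1.20 (adjusted p = 0.999).

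One ribosomal probe set stood apart from its paralogs in HET. The probe set for the large-subunit protein L21 genes AT1G57860 and AT1G57660 read 2659.0 and 2703.1 in T13, 1748.4 and 3009.7 in T14, 959.5 and 692.5 in HET, and 2537.0 and 2584.8 in CON. Both HET arrays were far below the other 6. The log2 difference was -1.47 ± 0.27 (SE) in HET minus T14 (limma, adjusted p = 0.0216) and -1.70 ± 0.27 in HET minus T13 (adjusted p = 0.168). The probe set for the L21 paralogs AT1G09690 and AT1G09590 read 2019.3 and 1903.1 in T13, 2273.8 and 2110.9 in T14, 2346.8 and 2174.9 in HET, and 2849.5 and 2114.1 in CON. Its HET minus T14 difference was 0.04 ± 0.21 (adjusted p = 0.968), and HET overlapped T14 and CON. The call for AT1G57860 and AT1G57660 was lost without T14 replicate 2 (-1.09, adjusted p = 0.159), HET replicate 1 (-1.71, 0.0642) or HET replicate 2 (-1.24, 0.138), and with the GAPDH covariate it was -1.64 (adjusted p = 0.54).

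**Figure D4:**
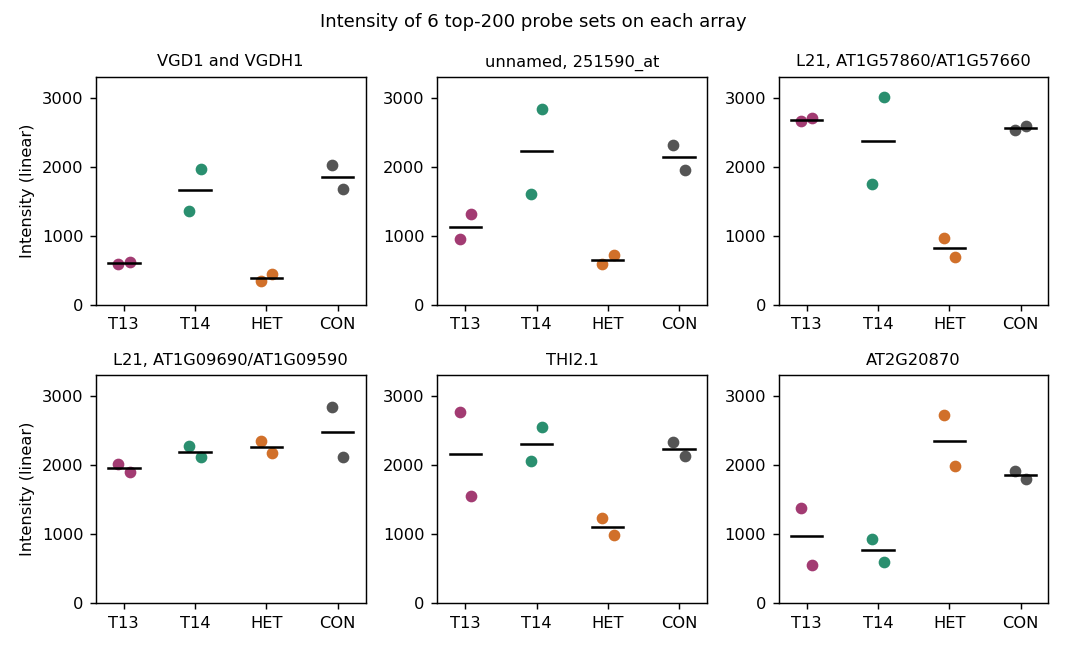
Linear intensity of 6 of the 200 probe sets on each array, T13, T14, HET and CON from left to right, with 2 arrays per group as points and their mean as a bar. The first 3 panels are the called probe sets, lowest in HET, at 337.2 to 959.5. The L21 paralogs AT1G09690 and AT1G09590 lie between 1903.1 and 2849.5 throughout.

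Paralogs of other families also differed, by less. Over 16 pairs of probe sets for different genes of 1 ribosomal family, in 14 families, the largest gap between their log2 differences was 1.90, in HET minus T13 for L21. Outside the L21 pair it was 0.82, in HET minus T14 for L6, where the probe set of AT1G74060 and AT1G74050 differed by -0.60 and AT1G18540 by 0.23. In the S3a pair the gap was 0.81 in HET minus T13, AT4G34670 differing by -0.32 and AT3G04840 by 0.49. In 4 further pairs both probe sets read the same genes (L38, L39, S29 and S30), and they still differed by up to 0.51, in T13 minus CON for S29. That value is the disagreement of probe sets annotated to the same genes in these arrays. Each reads several genes, so they need not read the same transcripts. In HET minus T14 and HET minus T13 these pairs differed by up to 0.42 and 0.36.

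Several abundant members varied without passing the test. THI2.1, an antimicrobial thionin of flowers, read 2767.5 and 1546.8 in T13, 2052.9 and 2550.1 in T14, 1228.9 and 981.4 in HET, and 2341.7 and 2137.9 in CON. Both HET arrays were its lowest, with a HET minus T14 difference of -1.05 ± 0.27 (SE, log2, limma, adjusted p = 0.151). AT1G54410, a small dehydrin, read 2658.6 and 2331.2 in T13, 2299.6 and 2195.3 in T14, 1242.1 and 1495.5 in HET, and 1895.7 and 1848.5 in CON. Again HET was below all other arrays, with -0.86 ± 0.20 against T13 (adjusted p = 0.455).

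AT2G20870, known as a putative cell wall protein, ran the other way. It read 1381.8 and 548.8 in T13, 934.6 and 598.7 in T14, 2720.0 and 1981.1 in HET, and 1909.5 and 1802.2 in CON. All 4 arrays of the single insertion lines were below HET and CON. The log2 difference was 1.61 ± 0.37 (SE) in HET minus T14 (limma, adjusted p = 0.0847) and 1.40 ± 0.37 in HET minus T13 (adjusted p = 0.455). It passed in HET minus T14 only where T13 replicate 1 or T13 replicate 2 was left out (adjusted p = 0.0108 and 0.0107), with the difference unchanged at 1.61.

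GILT, a lysosomal thiol reductase family gene, read 1451.4 and 1147.3 in T13, 2292.9 and 1811.2 in T14, 1456.2 and 919.0 in HET, and 1942.9 and 1893.5 in CON. T13 and HET overlapped each other and lay below T14 and CON, with -0.81 ± 0.25 in HET minus T14 (SE, log2, limma, adjusted p = 0.286). AT3G22230, the large-subunit protein L27, read 1275.2 and 1681.7 in T13, 794.1 and 1088.8 in T14, 1046.2 and 915.4 in HET, and 1519.5 and 1682.1 in CON. Here T14 and HET overlapped and lay below T13 and CON. AT4G39200, the small-subunit protein S25, read 2463.6 and 3606.4 in T13, 1408.4 and 3851.9 in T14, 1866.1 and 1777.5 in HET, and 1546.4 and 2425.9 in CON, so its T14 arrays alone covered the whole range of the other groups.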

How the data were processed

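Inflorescence RNA was hybridised to 8 Affymetrix ATH1 arrays, 2 per group. The authors deposited 1 linear intensity value per probe set and array, with a 2% trimmed mean of 100 on each array, as the values show. No source used here names the software that made them, and the deposited scale was kept. The number of arrays limits the precision. The members, gene lists and function groups were chosen with earlier results of these data known. Genes were named from the platform annotation through a RefSeq table of locus tags, and their functions are general knowledge of the loci, assigned without regard to their values. Of 13513 probe sets with 1 gene, 13436 matched a locus tag. Their symbol was the locus tag in 88.0%, against 61.9% of the protein-coding loci of that table, so named probe sets are no random draw. Numbers of all named probe sets per function group were not counted.

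Linear models on log2(intensity + 16) used limma 3.58.1 under R 4.3.3, with moderated variances that follow an intensity trend; this scale understates the change of dim probe sets. All 8 arrays shared 1 spread, with 4 residual degrees of freedom. Kept probe sets reached the 40th percentile of their array on at least 2 arrays, and 15045 did. Benjamini-Hochberg adjustment ran over all of these per comparison, with calls made under 0.05. With 2 arrays against 2, an exact permutation test cannot go below 0.333, so none was used.

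The rule for named genes took the 20 members with 1 gene and the highest CON mean, the 3 highest of each function group, all called members, the 6 furthest from CON on each side per group, and the 8 of smallest and of largest range. It also took 3 probe sets on each side of the threshold. A subset of these is described in the text. Alternatives were fits without CON or without 1 array, a covariate for scanner background or for the GAPDH ratio, array weights, no trend in the variance prior, median centring, quantile normalization, no filter or one at the 60th percentile, a pseudocount of 1 or 32, and other ways to choose the members. Promoter sequences were left aside. Plots were made in matplotlib 3.10.9.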

Additional observations from a re-analysis of the deposited data

Results flagged for a closer look

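In 3 members the change from CON differed between genotypes by a test of the difference itself. For the probe set that reads both VGD1 and VGDH1 it was -1.41 on the log2 scale in T13 minus T14 and -2.04 in HET minus T14. For the L21 probe set of AT1G57860 and AT1G57660 it was -1.47 in HET minus T14, and for the unnamed 251590_at it was -1.70. Of all tested, 0.499% were called in T13 against T14 and 0.97% in HET against T14. With the GAPDH ratio as a covariate none of the HET minus T14 calls held, and 0 of all 15045 tested were called. The ratio was higher on both HET arrays (0.345 and 0.127) than on both T14 arrays (0.0969 and 0.0718). That fit therefore cannot tell the ratio apart from the genotype, and no conclusion is drawn from it. With the scanner background as a covariate the T13 minus T14 call (limma, adjusted p = 0.556) and the L21 call (0.0523) were lost. Outside the main measurement, HET replicate 1 had a 5' GAPDH control signal 0.345 times its 3' one, higher than in CON (0.086 and 0.129). That array is 1 of the 2 behind each HET value.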

How the results depend on the processing

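No paired analysis was made, because replicate numbers follow accession order and the labels do not say whether arrays of different groups pair. Against 1 member called in T13 against T14, 0 were called with no filter, with the scanner background as a covariate and with T13, T14 and HET arrays alone, and 0 to 1 without 1 array. Against 3 in HET against T14, 1 was called with no filter, 0 with the GAPDH ratio as a covariate, and 1 to 4 without 1 array. The F test called 1 with no filter, 1 with either covariate, and 1 to 4 without 1 array. HET against T13 stayed at 0 in 19 of 19 alternatives. Where an array was left out, the lone array of its group is assumed to vary like the others. Calls over all probe sets tested fell as well. In T13 against T14 they went from 75 to 0 with no filter and with the scanner background, and to 30 without CON. In HET against T14 they went from 146 to 84 with no filter and to 0 with the GAPDH ratio. F test calls went from 117 to 65 with no filter, 85 with the scanner background and 40 with the GAPDH ratio. These losses were thus not particular to the members, and their cause was not tested.

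Under the alternatives run, members within 0.5 of CON numbered 170 to 194 in T13, 165 to 190 in T14 and 180 to 190 in HET. They numbered 178 to 196 in T13 against T14, 160 to 184 in HET against T13 and 166 to 186 in HET against T14. With members chosen by 1 CON array, 176 to 177 were in the top 200 of T13, 167 to 171 of T14 and 166 to 168 of HET. The members' median difference from CON took either sign. In T13 it was -0.11 under quantile normalization, 0.058 with members chosen on CON replicate 1 and compared with CON replicate 2, and -0.11 to 0.049 without 1 array. In T14 these were -0.12, 0.061 and -0.087 to 0.054, and 0.073 with the scanner covariate. In HET it was 0.093 with the scanner covariate, 0.084 with the choice by CON replicate 1, and -0.091 to 0.074 without 1 array. T13 against T14 was -0.14 with the scanner covariate. HET against T13 was 0.068 under quantile normalization, 0.099 under median centring, 0.13 with the scanner covariate and 0.063 with the GAPDH ratio. HET against T14 was 0.10 under quantile normalization and 0.11 under median centring. Taking 100 members gave 34 ribosomal, 8 other named and 58 unnamed probe sets, and taking 400 gave 98, 79 and 223.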

Other observations

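Of the 200, 3 members had replicate 1 at least 2-fold above replicate 2 in both T13 and T14, chosen after their values were seen. The unnamed 247717_at read 4516.0 and 1051.1 in T13, 5672.6 and 1652.3 in T14, 3627.9 and 3546.3 in HET, and 3591.0 and 2174.2 in CON. Its neighbour in numbering, 247718_at, read 4469.5 and 1352.1 in T13, 5156.9 and 1617.4 in T14, 4130.1 and 4405.5 in HET, and 3268.0 and 2297.6 in CON. AT1G09310, whose function is not known from these files, read 1926.6 and 867.2 in T13, 2366.2 and 817.4 in T14, 2064.7 and 1877.3 in HET, and 2245.6 and 1361.5 in CON. No member had replicate 2 at least 2-fold above replicate 1 in both groups. AT1G48750, the probe set 3 places outside the 200, ran the same way, at 2638.1 and 1024.8 in T13, 2663.4 and 1172.7 in T14, 2404.2 and 2379.6 in HET, and 1759.3 and 1391.6 in CON. Arrays of T13 and T14 with the same number also shared many of their own 200 highest. The first arrays shared 170 and the second 183, against 166 within T13 and 152 within T14. The 170 was not particular to that pair, since T13 replicate 1 shared 172 with CON replicate 1. T14 replicate 1 shared 169 with HET replicate 2. The numbers follow accession order and name arrays only, and the cause was not tested.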
